A study of Mus musculus with 2 samples.

Results

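The subject is the set of Gm-numbered gene models, mouse genes that carry only a provisional symbol made of the letters Gm and a number. A row of the deposited matrices was a member when its symbol had that form and at least 1000 UMIs (unique molecular identifiers, which count captured RNA molecules) were summed over all barcodes of both libraries. Of 7863 Gm-numbered models in the files, 2552 had at least 1 UMI and 79 were members. The gene model Gm19951 was set aside by the rule. The members held 0.314% of the UMIs of the WT library and 0.304% of the cKO library. The UMI total chose the members and is given only as a description. Gm42067 with 1027 UMIs and Gm19705 with 1026 lay just inside the limit, and Gm20707 with 990 and Gm3839 with 988 lay just outside.

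Mouse thymocytes pulled down with anti-CD25 beads were measured by 10x Genomics 3′ single-cell RNA sequencing. One library came from WT mice and the other from SETDBf/fCD4-Cre mice, called cKO, in which a floxed SETDB gene is deleted by Cre under the Cd4 promoter. The label does not say which SETDB gene is floxed, and neither the age nor the number of animals is given. CD4-Cre becomes active towards the end of the double-negative (DN) stage, so DN cells of the cKO library are taken to have formed largely before the deletion, which was not measured here.

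Thymocytes pass from the DN stage, where CD25 appears and Ptcra is expressed, through a cycling transition to the CD4 and CD8 double-positive (DP) stage, and from there through selection to mature T cells and Foxp3-expressing regulatory T cells. SETDB proteins belong to the family of histone H3 lysine 9 methyltransferases, and SETDB1 is known for silencing retroelements with KRAB zinc-finger proteins and TRIM28. A Gm symbol says nothing of function. Such models cover long noncoding RNAs, transcripts antisense to known genes, copies of ribosomal protein or ubiquitin genes, read-through transcripts, and protein-coding genes that have not been named.

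The WT library held 89370968 UMIs in 7852 barcodes and the cKO library 76668166 in 8461, and 6989 WT and 7372 cKO cells were kept. Median depth was 7700 UMIs per cell in WT and 4653 in cKO, and 16 barcode sequences occurred in both libraries. Cells were sorted into 8 stages by UMIs of marker genes, from 168 to 2021 cells per stage in WT and from 223 to 2985 in cKO. In both libraries all 4 check markers of early DN cells, which the gates did not use, were highest in that stage, as were all 4 of resting DP cells, 3 of 5 for DN3, 5 of 6 for Foxp3-positive cells and all 5 listed for the pair of cycling stages. The 2 remaining gates were less clean, with 2 of 4 check markers highest in the post-selection gate and 0 of 5 in the mature gate, most of whose markers peaked in Foxp3-positive or early DN cells. With 1 library per genotype there is no replicate and no test. Every interval is a 95% interval for counting error only, and the spread between mice, enrichments and captures is not measured. A member's UMIs in a stage were divided by all UMIs of that stage and library and are given as CPM, counts scaled to a common total per stage and library.

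The stage at which a member was highest was the same in both libraries for 64 of 79 members, beside 69.8% of all genes with at least 1000 UMIs that were not gate markers. A gene was called stage-restricted when the same stage was highest in both libraries and lay at least 2-fold above the next stage in each, with 5 CPM added to both. That held for 12 members, beside 2.48% of all such genes. Because the 1000 UMIs were summed over all barcodes, a model could become a member mainly through the stage where it was high. In resting DP cells Gm44175 had 456 WT and 733 cKO UMIs, of 1514 over both libraries. Gm40841 had 310 and 393 there, of 1174. How far this limit bears on the share of restricted models was not tested. Of the 12, 4 were restricted to early DN cells (0.366% of all genes), 1 to DN3 cells (0.228%) and 7 to resting DP cells (1.71%). None was restricted to the other stages, where the share of all genes was 0.0914% in post-selection, 0.0228% in mature, 0.0571% in Foxp3-positive and 0% in cycling cells, so 0 of 79 lies near the background there. Resting DP was the highest stage of 29 members (36.7%), against 31.0% of all genes. At the other end, 16 members differed by at most 2-fold between their highest and lowest stage in both libraries, and 11 differed by at least 10-fold.

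**Figure D1:**
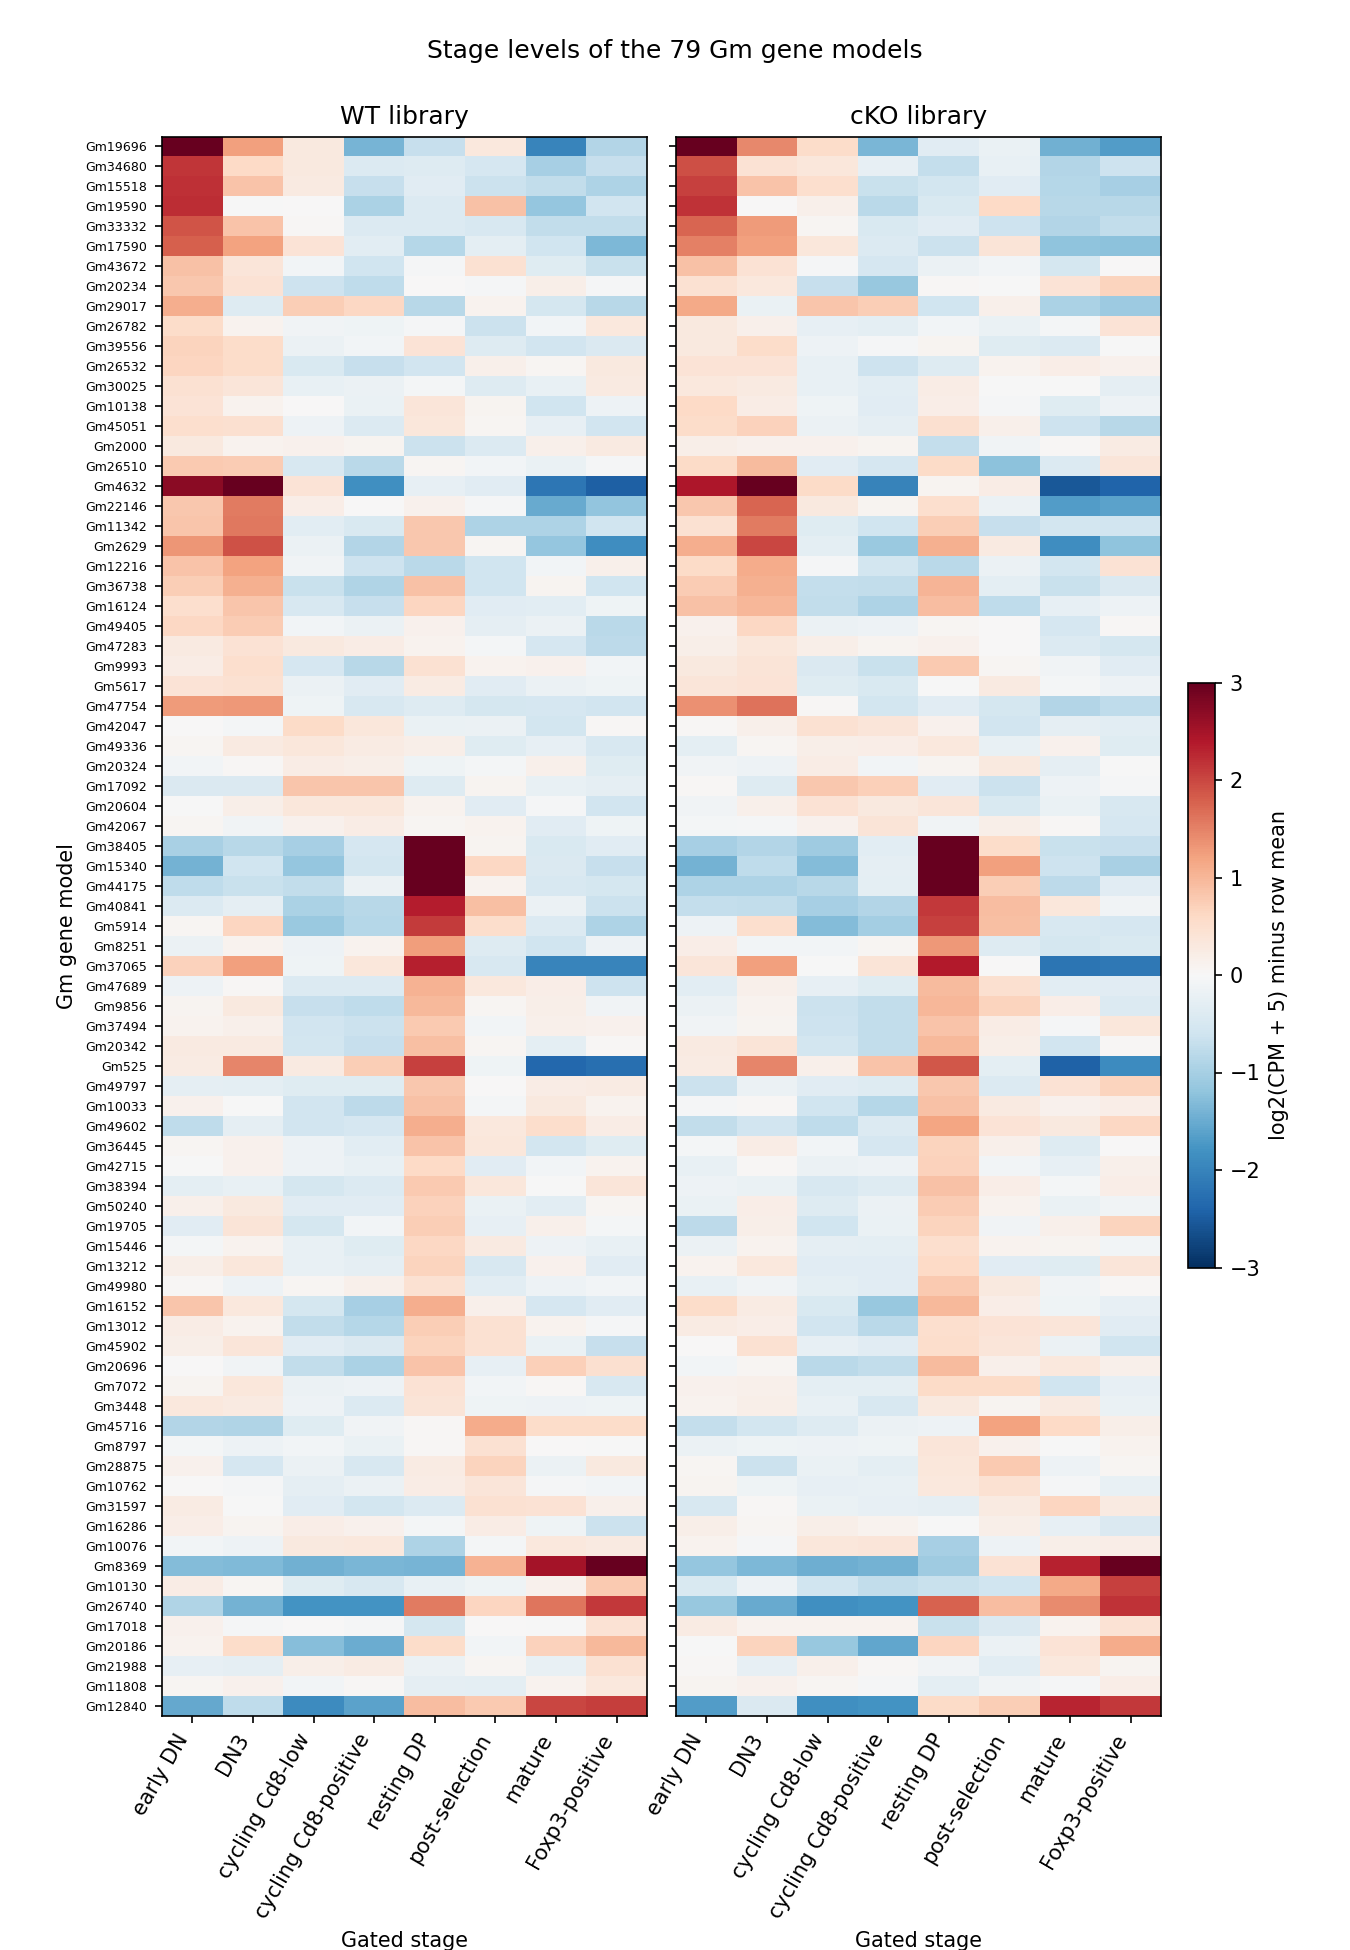
Levels of the 79 Gm gene models in 8 gated stages (columns) of the WT library (left) and the cKO library (right), each row coloured by log2(CPM + 5) minus that model's mean over the stages of the library; there is 1 library per genotype and no error bar. Red blocks mark the 4 models restricted to early DN cells, Gm4632 in DN3, the 7 restricted to resting DP cells, and Gm8369 in Foxp3-positive cells.

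A group of 4 noncoding models was highest in early DN cells, the earliest gated stage, defined by Kit and Cpa3. Gm19696 had 183.7 CPM in WT early DN cells and 152.7 in cKO, and the next stage, DN3, had 46.2 and 47.2 CPM. Its 1006 WT UMIs lay in 235 of 438 early DN cells. Gm19696 lies 27.5 kb from Zfp36l2, an RNA-binding protein that promotes mRNA decay, on the same strand. Zfp36l2 was higher in the cKO library in all 8 stages, with log2 differences of 0.36 to 1.06. Gm19696 had a log2 difference of -0.26 in early DN cells and differences of both signs over the stages. These ran from -0.995 in Foxp3-positive cells (17 WT and 2 cKO UMIs) to 0.367 in mature cells (1 and 4 UMIs). Both ends rest on few UMIs, and which gene differed more between genotypes was not tested.

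Gm19590 had 46.6 CPM in WT early DN cells and 39.5 in cKO, with post-selection cells next at 15.4 and 9.82 CPM. It lies 97182 bases from Kdr, which is not reported here, and 176.3 kb from Kit, the stem cell factor receptor. Kit is one of the genes that defined the gate, so the gate bears on how well the Kit and Gm19590 profiles can be compared. Gm15518, antisense to the ciliary transport gene Ift57 and 1.7 kb from Cd47, had 45.5 CPM in WT early DN cells and 36.7 in cKO. Gm34680 lies 55.2 kb from the transferrin receptor gene Tfrc and overlaps the protein-coding gene Zdhhc19 on the same strand, with 0 shared exon bases. It had 39.3 CPM in WT early DN cells and 30.5 in cKO. DN3 was the next stage of both, at 14.9 and 13.1 CPM for Gm15518 and at 10.2 and 7.39 CPM for Gm34680. All 4 early DN models were lower in the cKO library in this stage, by log2 differences of -0.21 to -0.32, and the interval of the ratio excluded 1 for 3 of them, all but Gm19590. The early DN check markers were lower there too: Lyl1 had 40.2 CPM in WT and 29.6 in cKO, Mef2c 59.0 and 41.3, Hhex 32.0 and 26.3, and Lmo2 4.02 and 1.88. Whether these move together was not tested. The lower of the 2 libraries' ratios to the next stage was 1.88 for Gm19696 and 1.39 for Gm34680 when cells were thinned to 2000 UMIs, and 1.86 for Gm15518 under a stricter cell filter, all under the 2-fold limit.

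Gm4632 was the only DN3-restricted model. It had 973.9 CPM in WT DN3 cells and 866.7 in cKO, 421.0 and 363.9 CPM in early DN cells, and 81.0 and 97.6 CPM in cycling Cd8-low cells. Its level in the DN3 stage was carried by most cells, with at least 1 UMI in 1444 of 1523 WT cells and 1082 of 1141 cKO cells. Foxp3-positive and mature cells had at most 9.58 CPM in either library. The widest spread over stages among the 79 models was that of Gm4632, 81.7-fold in WT and 73.0-fold in cKO. The model is annotated antisense within Vwa8, a mitochondrial ATPase gene, with no shared exon bases, and Vwa8 itself stayed between 2.38 and 6.36 CPM in all stages of both libraries. Promoter activity was not measured, and the sequence around the RefSeq start of Gm4632 is shown because of its wide spread over stages. It covers 250 bases before the start and 50 after it, on GRCm38.p6 at chr14:79199141-79199440, minus strand, 5′ to 3′. Capitals mark the E-box motif CACCTG, the class of site that E proteins bind.
Gm4632: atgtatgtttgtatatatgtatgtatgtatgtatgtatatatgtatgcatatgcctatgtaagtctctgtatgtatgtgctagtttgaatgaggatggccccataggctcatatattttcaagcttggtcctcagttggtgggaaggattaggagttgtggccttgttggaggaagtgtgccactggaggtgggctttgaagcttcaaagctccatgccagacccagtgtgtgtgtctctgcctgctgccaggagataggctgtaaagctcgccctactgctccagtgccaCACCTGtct
This stretch holds 1 CpG. CACCTG, counted on both strands, occurs in 20.2% of 32851 RefSeq promoters of this length, so a match is common and describes only these letters.

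Resting DP cells held the models with the sharpest stage profiles. Gm38405 had 166.4 CPM in WT and 190.0 in cKO, and no other stage exceeded 6.15 CPM in WT or 11.8 in cKO, ratios to the next stage of 15.4 and 11.6. Gm15340 had 244.4 and 272.8 CPM, with ratios of 12.2 and 7.43. Gm44175 had 75.59 and 91.98 CPM, with ratios of 8.86 and 6.14. In all 3 the next stage was post-selection, and the remaining stages had at most 8.13 CPM.

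Some named genes near or overlapping them were also highest in resting DP cells. Other named genes nearby are not reported here. These are Spcs2 and Rnf169, 7204 and 30896 bases from Gm38405, and Psmg1, 78205 bases from Gm15340. Psmg1 is nearer to Gm15340 than Ets2, the gene given below. Gm44175 lies between the CD8 coreceptor genes Cd8b1, 16.9 kb away, and Cd8a, 12.6 kb away. Cd8a had 1670 CPM in WT resting DP cells and 1539 in cKO, and at most 308.3 CPM in any other stage. Both Cd8 genes define the gate, so their peak there is not a finding. In cycling Cd8-positive cells, a gate that the Cd8 genes also define, Gm44175 stood at 2.48 and 2.69 CPM. Gm38405 runs antisense over Xrra1 and shares 251 exon bases with it. Xrra1 had 74.9 CPM in WT resting DP cells and 84.1 in cKO, and at most 2.95 CPM elsewhere. The use of strand in the authors' counting is not stated in the sources used here. How far reads of the pair were kept apart is therefore not known. The same limit holds for every model that shares exon bases with a gene on the other strand. Gm15340 lies 179.3 kb from Ets2, a transcription factor gene that had 354.6 CPM in WT resting DP cells and 362.5 in cKO and at most 87.4 CPM in any other stage.

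**Figure D2:**
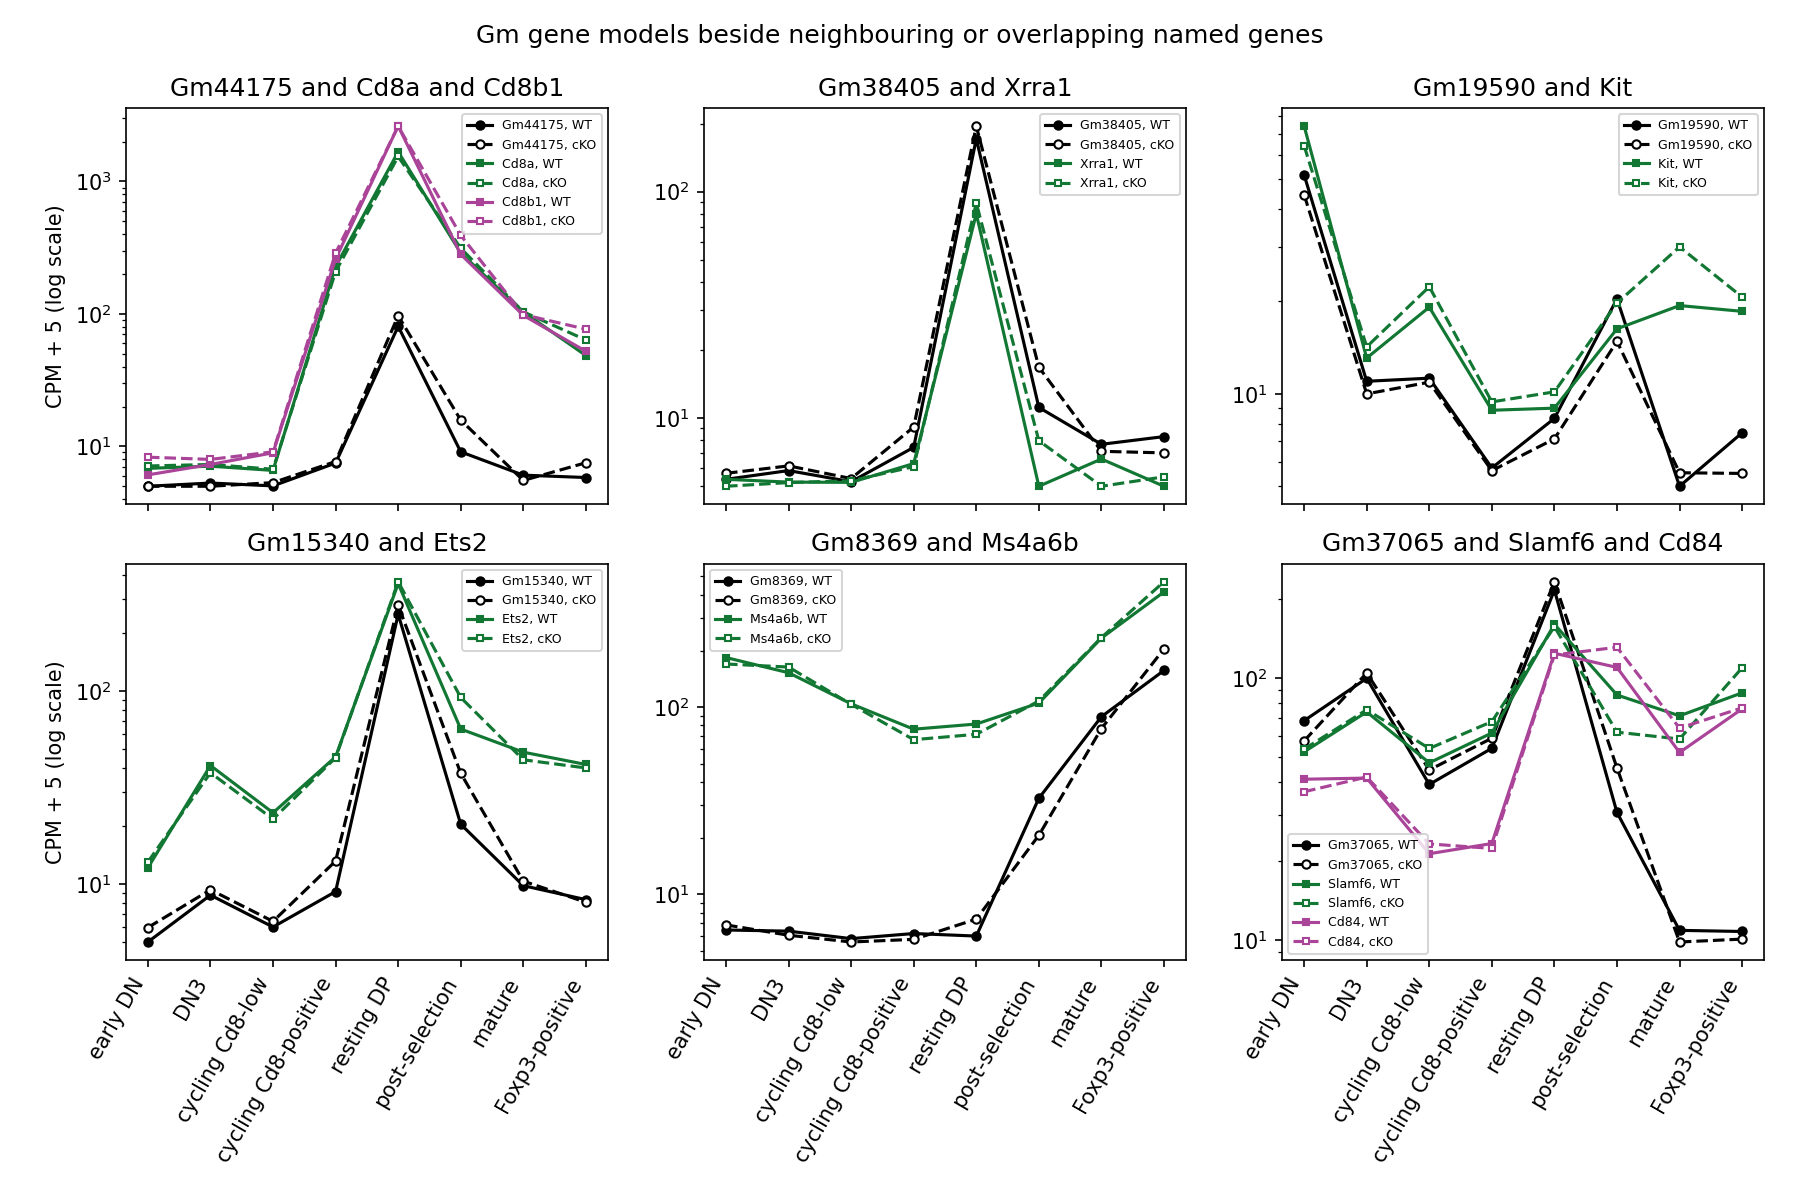
CPM + 5 (log scale) of 6 Gm gene models (black circles) and of neighbouring or overlapping named genes (green and purple squares) across 8 gated stages, WT as filled symbols and solid lines, cKO as open symbols and dashed lines, 1 library per genotype. Gm44175, Gm38405 and Gm15340 peak with the named genes shown in resting DP cells. Not all nearby genes are shown. Gm8369 is low before the post-selection stage while Ms4a6b is present at every stage.

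Gm37065, antisense within the SLAM family receptor gene Slamf6 and 19.2 kb from its relative Cd84, had 211.2 CPM in WT resting DP cells and 227.5 in cKO. DN3 was the next stage with 94.5 and 99.3 CPM, and mature and Foxp3-positive cells had at most 5.86 CPM. Slamf6 went another way after the DP stage: it had 155.0 and 151.7 CPM in resting DP cells and still 82.6 and 104.1 CPM in Foxp3-positive cells. The window around the RefSeq start of Gm37065, again 250 bases before and 50 after, is at chr1:171919307-171919606, minus strand, with CACCTG in capitals. RefSeq thus gives the antisense model a start of its own.
Gm37065: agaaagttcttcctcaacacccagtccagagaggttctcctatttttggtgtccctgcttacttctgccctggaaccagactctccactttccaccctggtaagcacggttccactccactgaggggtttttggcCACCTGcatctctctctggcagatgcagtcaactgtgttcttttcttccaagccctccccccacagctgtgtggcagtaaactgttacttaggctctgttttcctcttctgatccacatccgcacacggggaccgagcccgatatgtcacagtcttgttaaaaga
Gm40841 lies 242842 bases from Prl5a1 and 528.9 kb from the thymocyte transcription factor gene Sox4. It had 51.4 and 49.3 CPM in resting DP cells, and Gm8251 had 26.5 and 23.7 CPM. The ratio to the next stage of Gm40841 was 1.85 as a mean of per-cell CPM and 1.755 after thinning, and that of Gm8251 was 1.54 after thinning, 1.92 under the stricter cell filter and 1.96 under stricter gates.

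Gm5914 had 246.5 CPM in WT resting DP cells and 338.7 in cKO, with DN3 next in WT at 86.3 CPM and post-selection cells next in cKO at 150.2. Its ratio to the next stage was 1.56 after thinning and 1.69 as a mean of per-cell CPM. The model shares 114 exon bases on its strand with Agrp, a neuropeptide gene, and overlaps 370 exon bases of Ctcf, the insulator protein gene, on the other strand. Ctcf had 298.7 and 307.2 CPM in resting DP cells and at least 156.2 CPM in every stage, a flatter profile. The promoter differs from those above in base composition. It holds 41 CpG and 3 copies of the GC-box motif GGGCGG, counted on both strands and shown in capitals, on GRCm38.p6 at chr8:105637301-105637600, minus strand.
Gm5914: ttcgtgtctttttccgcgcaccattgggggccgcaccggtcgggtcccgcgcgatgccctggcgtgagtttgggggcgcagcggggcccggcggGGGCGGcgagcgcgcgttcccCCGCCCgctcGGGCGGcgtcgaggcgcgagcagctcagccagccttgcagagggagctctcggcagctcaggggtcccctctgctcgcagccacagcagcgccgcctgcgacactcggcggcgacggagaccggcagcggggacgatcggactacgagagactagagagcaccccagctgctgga
GGGCGG occurs in 35.7% of the RefSeq promoters. Of the 79 models, 31 matched a RefSeq promoter and 22 of these had a GENCODE start within 100 bases. Among these 22, the 9 with at least 10 CpG had a median stage range (highest over lowest stage, 5 CPM added) of 1.89-fold in WT, from 1.47 to 9.35, and the 13 with fewer had a median of 3.94-fold, from 1.97 to 81.7. In cKO the medians were 1.83-fold and 4.73-fold. The ranges overlap, and this is a description of 22 models.

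Foxp3-positive cells were the highest stage of 6 models (7.59%), against 5.31% of all genes. Gm8369, annotated as protein-coding in the cluster of Ms4a membrane protein genes, had 152.4 CPM in WT Foxp3-positive cells and 200.1 in cKO, 84.1 and 72.0 CPM in mature cells and 27.7 and 15.7 CPM in post-selection cells. Every earlier stage had at most 2.38 CPM in either library. It missed the restricted call because its WT ratio to mature cells was 1.77. Its neighbour Ms4a6b, 3.9 kb away on the same strand, also peaked in Foxp3-positive cells, at 408.7 and 463.8 CPM, but had 179.5 and 165.4 CPM in early DN cells. The window around the RefSeq start of Gm8369, again 250 bases before and 50 after, holds 1 TATA motif TATAAA. It appears as its reverse complement TTTATA, in capitals. The window is at chr19:11491788-11492087 on GRCm38.p6, plus strand. This motif, counted on both strands, occurs in 13.6% of RefSeq promoters.
Gm8369: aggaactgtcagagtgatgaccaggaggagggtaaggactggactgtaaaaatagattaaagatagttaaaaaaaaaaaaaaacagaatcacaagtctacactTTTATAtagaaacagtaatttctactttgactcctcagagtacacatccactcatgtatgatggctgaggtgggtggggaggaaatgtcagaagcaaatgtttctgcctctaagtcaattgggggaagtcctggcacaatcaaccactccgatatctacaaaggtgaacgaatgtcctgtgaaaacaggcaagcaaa
Gm12840, a long intergenic RNA model, had 172.9 CPM in WT Foxp3-positive cells and 215.7 in cKO, 166.1 and 242.7 CPM in mature cells, and 6.44 and 9.19 CPM in cycling Cd8-low cells. Gm26740, on the strand opposite H60b and Raet1e, ligand genes of the NKG2D receptor, had 95.3 and 102.6 CPM in Foxp3-positive cells, 62.2 and 75.9 CPM in resting DP cells and at most 1.86 CPM in cycling cells. Neither model was restricted to 1 stage, and both were lowest in cycling cells.

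The models fall into 4 structural classes by GENCODE vM21. In 29 the model lies antisense to a protein-coding gene, 13 share exon bases with a protein-coding gene on the same strand, 6 have a 3′ end that matches a named gene elsewhere at 98% identity or more, and 31 do neither. The 12 restricted models were spread over 7 of the 31, 4 of the 29 and 1 of the 13, and none was among the 6 copies. The median stage range in WT was 3.60-fold in the 31, 2.96-fold in the 29, 2.27-fold in the 13 and 1.95-fold in the 6. UMIs concentrated in a handful of models, with 66.1% of the 513023 member UMIs in Gm10076, Gm47283, Gm4632, Gm16286, Gm11808 and Gm5914. Of these, Gm16286 shares 457 exon bases with the spliceosome gene Txnl4a. Gm16286 ranged from 92.8 to 173.1 CPM over the stages in WT and from 106.6 to 167.5 in cKO, and no interval of its ratio between libraries excluded 1.

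The second comparison sets the cKO library against the WT library within each stage. A model was counted when it had at least 50 UMIs over both libraries in the stage, and was called higher or lower when (CPM + 5) differed by at least 1.5-fold. In early DN cells 1 of 71 counted models was higher in cKO (0.449% of all genes) and 2 were lower (1.03% of all genes). In DN3 cells 3 of 76 were higher (0.323%) and 1 was lower (0.508%). Among cycling Cd8-low cells 2 of 76 were higher (0.308%) and 1 was lower (0.217%), and among cycling Cd8-positive cells 1 of 75 was higher (0.229%) and 1 was lower (0.252%). In resting DP cells 2 of 70 were higher (0.391%) and 0 were lower (0.225%).

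The 3 later stages hold fewer UMIs and fewer counted models. In post-selection cells 3 of 14 models were higher (4.74%) and 1 was lower (3.05%). In mature cells 1 of 28 was higher (1.78%) and 0 were lower (1.74%), and in Foxp3-positive cells 5 of 32 were higher (1.73%) and 0 were lower (3.49%). Over all stages 15 of 79 models were called in at least 1 stage, 12 higher (15.2%) and 3 lower (3.80%), beside 5.65% and 6.40% of all genes and 11.5% of all genes either way. The models had fewer UMIs than other genes, with medians of 87.0 against 171.0 in Foxp3-positive cells, and the part of counting error in these shares was not tested. The median log2 difference of the models lay between -0.06 and 0.31 in the 8 stages, highest in post-selection cells, while the median of all genes lay between -0.05 and 0.03. Among Foxp3-positive cells the RIKEN-named gene models, another set of provisional names, had 1 of 101 higher and 5 lower. In each other stage 0 or 1 of them were higher and 0 to 4 lower. That set was not limited to genes with at least 1000 UMIs, as the models and all genes were, so the counts are not like for like.

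**Figure D3:**
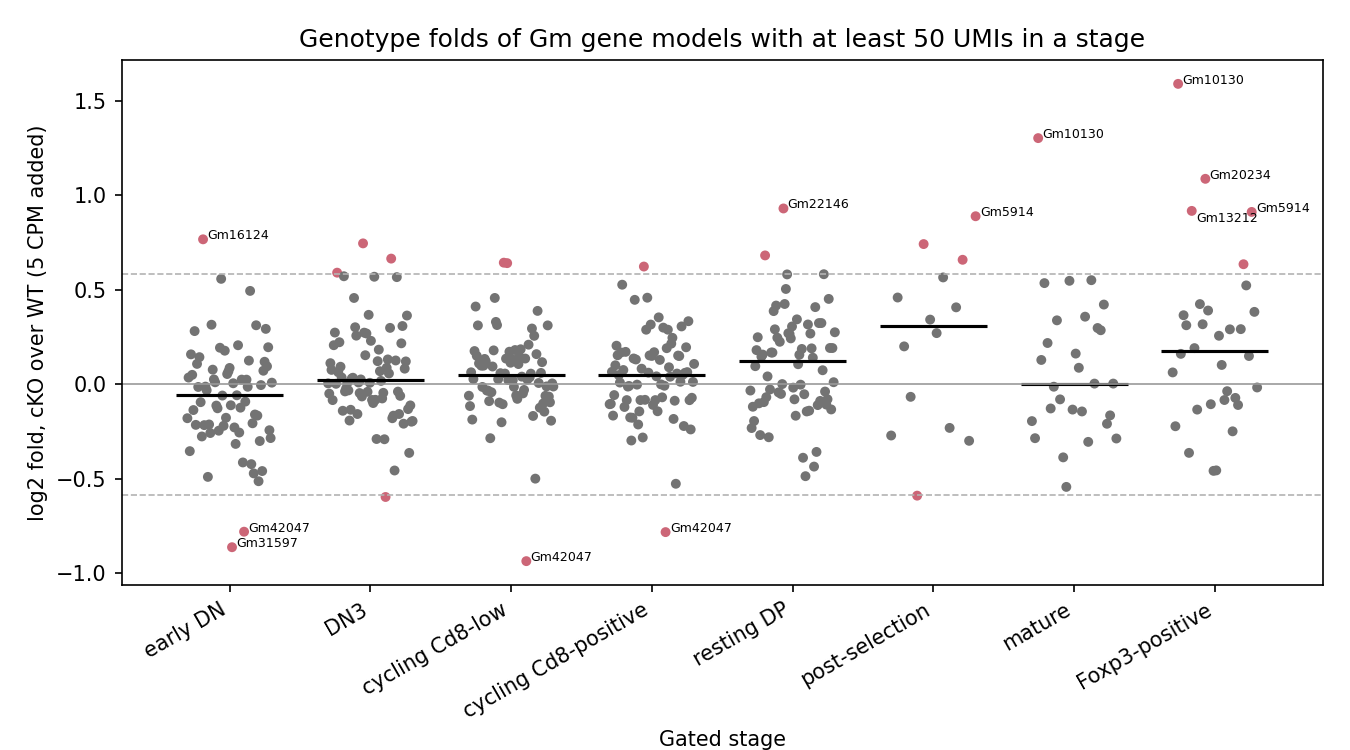
Log2 of (CPM + 5) in cKO over WT for every Gm gene model with at least 50 UMIs in a stage (points), with the median as a black bar and the 1.5-fold limits as dashed lines; 1 library per genotype. Points past the limits are red, and Gm10130 in Foxp3-positive cells is highest at 1.59.

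Gm10130 had the largest difference. In Foxp3-positive cells it had 17.7 CPM in WT (43 UMIs) and 63.2 CPM in cKO (125 UMIs), so that the cKO to WT ratio was 3.58 (interval 2.51 to 5.18) and a log2 difference of 1.59. In mature cells it had 9.58 CPM in WT (18 UMIs) and 30.9 CPM in cKO (58 UMIs), giving a cKO to WT ratio of 3.23 (1.88 to 5.82) and a log2 difference of 1.30. The cKO library was thus the higher of the 2 in both stages. The other 6 stages had 4.46 to 10.4 CPM in WT and 4.89 to 9.89 in cKO, and the interval of each ratio there included 1.

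The Gm10130 UMIs were spread over cells. In the Foxp3-positive gate they lay in 37 of 315 WT cells and 88 of 307 cKO cells, with at most 4 UMIs in 1 cell, at median depths of 5820 and 5170 UMIs per cell. The mature gate held more RNA of other cell types in the WT library, where the B-cell check markers summed to 833.6 CPM against 255.0 in cKO, with 2 and 1 of 4 at 0, and the myeloid markers to 857.0 against 230.5 CPM, with none of 3 at 0. Without cells that held at least 2 UMIs of Cd74 or H2-Aa the log2 difference of Gm10130 was 1.40 in mature and 1.48 in Foxp3-positive cells. Over 9 alternative settings it ranged from 1.02 to 1.59 and from 1.36 to 1.78.

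Gm10130 is annotated as protein-coding and lies on chromosome 2 among zinc-finger genes. Its last transcript bases match Zfp345 at 93.5% identity, below the limit for a copy. It overlaps 3300002I08Rik on the other strand without shared exon bases, and the nearest named genes are Zfp442, 44.1 kb away, and Zfp937, 83.0 kb away. In Foxp3-positive cells Zfp442 had 10 UMIs in WT and 9 in cKO, Zfp937 had 8 and 9, and 3300002I08Rik had 1 and 2, too few to compare their differences with that of Gm10130. The RefSeq start of Gm10130 lies 12252 bases from the GENCODE start, so it may not be the start in use. A window of the same size around this RefSeq start is shown because the model carries the largest genotype difference. The window is on GRCm38.p6 at chr2:150311200-150311499, plus strand. None of the 3 motifs named above occurs in it, nor does the nuclear receptor motif AGGTCA, which 16.3% of promoters hold on either strand.
Gm10130: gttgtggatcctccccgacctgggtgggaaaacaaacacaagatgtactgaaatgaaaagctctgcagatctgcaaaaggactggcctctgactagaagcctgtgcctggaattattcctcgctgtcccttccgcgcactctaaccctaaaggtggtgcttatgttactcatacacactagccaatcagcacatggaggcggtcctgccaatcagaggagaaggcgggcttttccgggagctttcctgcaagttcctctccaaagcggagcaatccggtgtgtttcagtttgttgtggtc

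Gm22146 was higher in cKO in the 5 stages where it reached 50 UMIs, with intervals that excluded 1, and past 1.5-fold in 4 of them. It had 13 UMIs in WT and 20 in cKO post-selection cells, 3 and 7 in mature and 8 and 8 in Foxp3-positive cells, and these intervals included 1. In DN3 cells, where it was highest, it had 50.9 CPM in WT and 88.6 in cKO, giving a cKO to WT ratio of 1.74 (1.58 to 1.92). In resting DP cells it had 15.8 CPM in WT and 34.5 in cKO, giving a cKO to WT ratio of 2.19 (1.73 to 2.80). Cycling Cd8-low and cycling Cd8-positive cells had ratios of 1.73 (1.54 to 1.94) and 1.73 (1.47 to 2.04). The difference was thus as large in DN3 cells as in cycling cells. The gene identifier counted as Gm22146 carries the name AC154912.1 in GENCODE vM21, where the symbol Gm22146 belongs to a small RNA that overlaps it by 9 exon bases. The model lies antisense to Fkbp5, a co-chaperone of the glucocorticoid receptor, and shares no exon bases with it. Fkbp5 had smaller log2 differences in the same stages, 0.14 in DN3 and 0.31 in resting DP cells, against 0.74 and 0.93 for Gm22146. After thinning, which left 9 UMIs, the cycling Cd8-positive value was -0.68.

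Gm16124, antisense to the ubiquitin ligase scaffold gene Cul5, had 14.8 CPM in WT early DN cells and 28.7 in cKO, giving a cKO to WT ratio of 1.94 (1.45 to 2.60). In resting DP cells it had 16.9 and 30.1 CPM, a ratio of 1.78 (1.41 to 2.27), with a log2 difference that ranged from 0.44 to 0.80 over the alternatives. DN3 cells had 19.96 and 32.07 CPM, just under the limit. Gm26532, a long intergenic RNA model that overlaps the microRNA gene Mir24-2 by 2 exon bases on the same strand, had 5.63 CPM in WT cycling Cd8-low cells and 11.6 in cKO, giving a cKO to WT ratio of 2.05 (1.69 to 2.50), and 0.41 to 0.92 on the log2 scale over the alternatives. Both cKO levels lay above the WT level in every stage but 1, post-selection cells for Gm16124, which had 6.15 and 5.89 CPM.

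Gm5914, the resting DP model, was also higher in cKO in all 8 stages, and the interval excluded 1 in each. It passed 1.5-fold in post-selection cells, with 78.9 CPM in WT and 150.2 in cKO, and in Foxp3-positive cells, with 25.9 and 53.1 CPM, a ratio of 2.05 (1.49 to 2.85). In post-selection cells Arpp21, a marker of resting DP cells, was higher in cKO too, with 92.2 CPM in WT and 208.2 in cKO. The DP-restricted Gm15340 had 15.4 and 32.4 CPM there. The part of leftover DP cells in the post-selection value of Gm5914 was not tested. In Foxp3-positive cells Arpp21 had 18.9 CPM in WT and 17.7 in cKO. The Foxp3-positive log2 difference of Gm5914, 0.91, was 0.24 after thinning, which left 46 UMIs.

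Also higher in Foxp3-positive cells of the cKO library were 3 models with few UMIs each. Gm20234, antisense to the quiescence gene Slfn2, had 6.16 CPM in WT (15 UMIs) and 18.7 in cKO (37 UMIs), giving a cKO to WT ratio of 3.03 (1.63 to 5.95). Slfn2 itself had 233.7 CPM in WT and 195.5 in cKO. Gm13212, a zinc-finger model, had 8.63 and 20.7 CPM, and its log2 difference of 0.92 ranged from 0.11 to 1.17 over the alternatives. Gm49602, beside the transcription factor gene Sp4, had 10.3 and 18.7 CPM, and its log2 difference of 0.63 ranged from 0.17 to 0.81. The intervals of all 3 ratios excluded 1, and the lower ends of these ranges lie under the 1.5-fold limit for the last 2.

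In DN3 cells Gm45716, which shares 280 exon bases with the membrane protein gene Mmd, had 8.22 CPM in WT and 15.9 in cKO, giving a cKO to WT ratio of 1.94 (1.52 to 2.48). Its log2 difference of 0.66 ranged from 0.57, under the stricter cell filter and below the limit, to 0.88. Gm12840 had 19.9 CPM in WT DN3 cells and 32.5 in cKO, and in 1 cKO cell it reached 15 UMIs. Its log2 difference of 0.59 lay under the limit in 3 of 9 alternatives, with 0.38 after thinning. Its log2 difference of 0.59 ranged from 0.38 to 0.81 over the alternatives. In post-selection cells Gm2000 had 25.6 CPM in WT and 46.2 in cKO, and its log2 difference of 0.74 was -0.12 after thinning. Gm4632 had 46.1 and 75.6 CPM there, and its log2 difference of 0.66 ranged from 0.27 to 1.11 and lay under the limit in 5 of 9 alternatives. The 45 WT UMIs of Gm4632 lay in 6 of 168 cells, 26 of them in 1 cell, and the 77 cKO UMIs lay in 12 of 223 cells, so this value rests on a few cells.

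Lower calls were fewer. Gm42047, annotated as a long intergenic RNA, lies 3.7 kb from Klhdc4 and 40.0 kb from the amino acid transporter gene Slc7a5. It also overlaps the protein-coding model Gm20388 on the same strand, with 0 shared exon bases. Its last transcript bases match Sos2 at 95.3% identity over 300 bases, below the limit for a copy. Gm42047 was lower in cKO in the 5 stages where it reached 50 UMIs and past 1.5-fold in 4 of them. In cycling Cd8-low cells, where it was highest, it had 25.9 CPM in WT and 11.2 in cKO, giving a cKO to WT ratio of 0.430 (0.373 to 0.495). Early DN cells had 15.7 and 7.05 CPM, DN3 cells 14.9 and 8.16 CPM, and cycling Cd8-positive cells 21.3 and 10.3 CPM. The DN3 log2 difference of -0.60 became 0.12 under the stricter cell filter, -0.26 after thinning and -0.57 with scaling by the median gene ratio, each short of the limit, while the cycling Cd8-low value stayed between -1.26 and -0.91. The WT UMIs were uneven, with 769 in 299 of 1039 cycling Cd8-low cells and up to 19 in 1 cell.

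Gm31597, antisense to the sulfotransferase gene Sult2b1, was lower in early DN cells alone, with 18.6 CPM in WT and 7.99 in cKO, giving a cKO to WT ratio of 0.429 (0.282 to 0.638), and its log2 difference stayed between -1.13 and -0.78 over the alternatives. The 7 other stages had intervals that included 1. The difference between stages was not tested. Gm17018 was called lower in post-selection cells, with 41.0 and 25.5 CPM, but the interval of its ratio, 0.365 to 1.05, included 1. No model was past 1.5-fold in opposite directions in 2 stages.

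**Figure D4:**
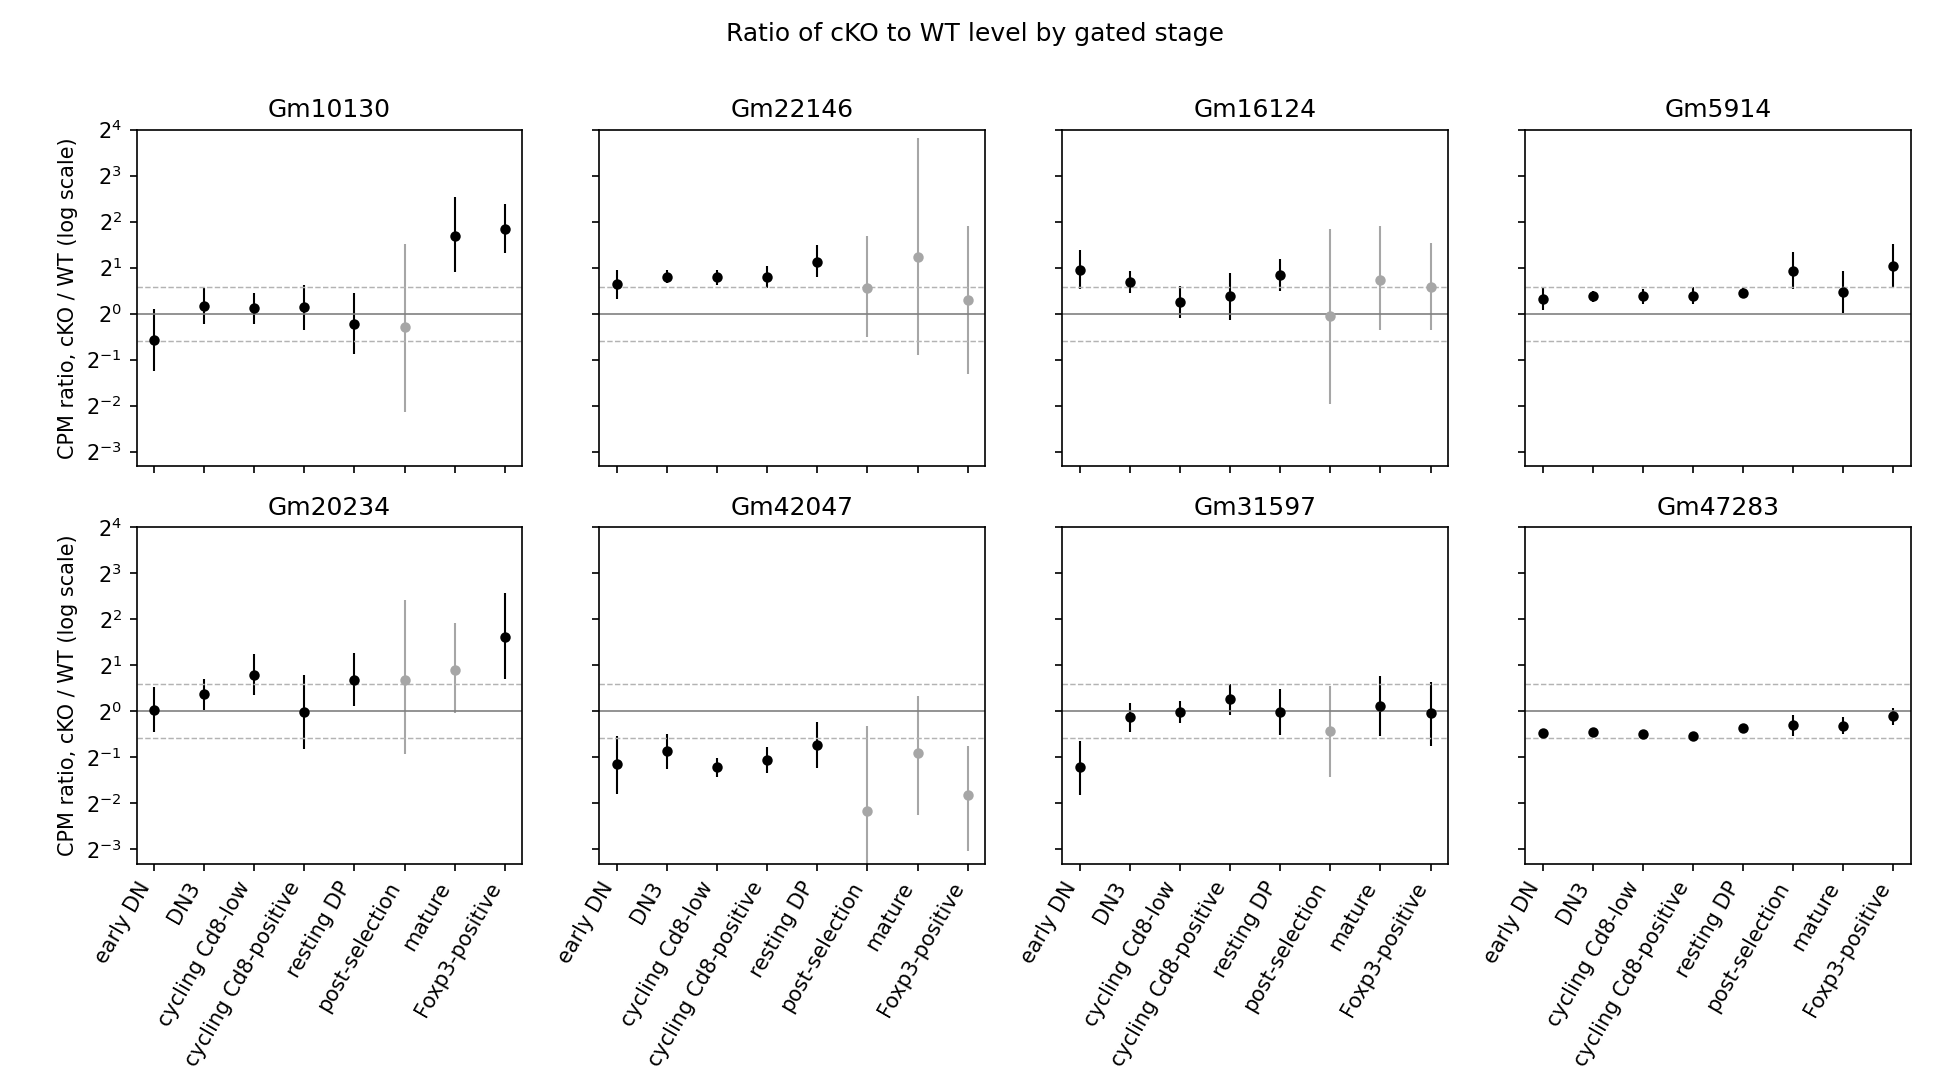
Ratio of cKO to WT CPM (log scale) in 8 gated stages for 8 Gm gene models, with 95% counting intervals as bars, 1 library per genotype; grey symbols have fewer than 50 UMIs over both libraries, and dashed lines mark 1.5-fold. Gm10130 departs from 1 in mature and Foxp3-positive cells, Gm31597 in early DN cells, and Gm22146, Gm5914, Gm42047 and Gm47283 keep 1 direction in all stages.

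A difference of 1 sign in every stage, of any size and with stages under 50 UMIs included, was found in 10 models. Higher in cKO in all 8 stages were 7 models (8.86%), Gm11808, Gm5914, Gm2000, Gm22146, Gm26532, Gm42715 and Gm26782, beside 2.48% of all genes. The interval excluded 1 in 8 of 8 stages for Gm5914, 7 for Gm2000, 6 for Gm11808, 5 for Gm22146, 4 for Gm26532, 3 for Gm42715 and 1 for Gm26782, and the last 2 and Gm22146 reached 50 UMIs in 5 stages. Lower in all 8 were 3 models (3.80%), Gm47283, Gm42047 and Gm45902, beside 3.67% of all genes, and the interval excluded 1 in 7, 7 and 2 stages. Gm47283, annotated on the Y chromosome, had 518.2 CPM in WT DN3 cells and 376.0 in cKO and 219.7 and 203.1 CPM in Foxp3-positive cells. Its log2 differences lay between -0.53 and -0.11, and the interval of the ratio excluded 1 in 7 of 8 stages. Other Y-linked genes went the other way over whole libraries: Ddx3y had 73.7 CPM in WT and 82.7 in cKO, Eif2s3y 81.9 and 96.2, Kdm5d 25.3 and 27.3, and Uty 21.3 and 23.4. Over whole libraries Gm47283 had 41134 of 89370968 UMIs in WT and 25343 of 76668166 in cKO. The lower Gm47283 level was thus not shared by these 4 genes. The nearest named gene before Gm47283, Ssty2, lies 23736666 bases away, and none is annotated after it. Whether these 4 genes are apt for comparison with Gm47283 was not tested.

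Models that copy a named gene showed a difference of another kind, in how UMIs were divided between the copy and the named gene. Gm10076 is annotated as a long noncoding RNA, but its transcript matches the ribosomal protein gene Rpl41 at 381 of 384 aligned bases (99.2%). The 78 bases that encode the short Rpl41 protein are the same in both, with 0 differences, and are printed from the GENCODE vM21 transcripts to show why a short read there cannot be placed by its letters alone. Capitals are not used here because no base differs.
Rpl41: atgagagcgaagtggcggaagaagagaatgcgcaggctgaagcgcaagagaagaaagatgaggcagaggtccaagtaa
Gm10076: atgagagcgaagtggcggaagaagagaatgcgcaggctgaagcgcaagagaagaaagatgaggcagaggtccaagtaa
Gm10076 ranged from 541.1 to 1276 CPM over the WT stages and from 459.7 to 1182 in cKO. Its share of the UMIs of the pair was 17.6% to 19.7% in the 8 WT stages and 14.3% to 15.8% in the 8 cKO stages, so the ranges do not overlap. Rpl41 was higher in cKO in all 8 stages, by 0.12 to 0.38 on the log2 scale, while Gm10076 lay between -0.29 and 0.03.

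Gm2000 and the ribosomal protein gene Rpl35, whose 3′ ends match at 99.7% identity, divided the other way. Gm2000 took 1.34% to 1.98% of the UMIs of the pair in WT and 2.06% to 2.52% in cKO, ranges that do not overlap either. Gm2000 was higher in cKO by 0.31 to 0.74 on the log2 scale, and Rpl35 lay between -0.08 and 0.18. In 3 further pairs, Gm8797 with the ubiquitin gene Ubb, Gm13212 with Zfp984 and Gm15446 with Zfp932, the shares of the 2 libraries overlapped. The sources used here do not say how reads that match both genes of a pair were counted. For these 6 models a level, a stage profile or a difference between libraries can therefore belong to the named gene in part, and this was not tested.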

How the data were processed

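The authors deposited counts of UMIs, not normalised, for every gene in every barcode. The submitters' processing notes name CASAVA 1.8, Cell Ranger 6.1.1 and Seurat 4.0.3, and the genome build, strand use and handling of multiply matching reads are not given in the sources used here. Barcodes with at least 500 genes, 1000 UMIs and at most 10% mitochondrial UMIs were kept. Doublets were called by scrublet in scanpy 1.11.5, with the WT threshold of 0.29 used for both libraries because the cKO threshold of 0.638 called 1 cell, which removed 148 WT and 129 cKO cells.

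Cells took the first gate they met, on raw UMIs. The order was B cells (Cd79a, Cd79b, Ms4a1, Ebf1), myeloid cells, Foxp3-positive cells, cycling cells split by Cd8a and Cd8b1, mature cells (Ccr7, S1pr1, Klf2), post-selection cells (Cd69, Itm2a, Cd5, Nr4a1), resting DP cells (Cd8a, Cd8b1, Rag1, Rag2), early DN cells (Kit, Cpa3) and DN3 cells (Ptcra, Il2ra). The B-cell and myeloid gates and ungated cells were not analysed here. Counts were summed per stage and library, 5 CPM were added, and ratios carry exact binomial intervals. The procedure was tested on simulated counts of the DN3 stage, with counting error only and with changes in well-counted genes. That test does not cover models with few UMIs, the later stages or the spread between mice.

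Gene types, neighbours and overlaps come from GENCODE vM21 (GRCm38), which held all 79 models, copies from BLAST+ 2.17.0 on the last 300 transcript bases, and promoters from RefSeq. Models named are the 6 with the most UMIs, those called with an interval that excludes 1, up to 4 restricted per stage, Y-linked models and those at the limit. Of the 6 copies, 1 pair is not reported here. The other models named were chosen after their values were seen. Members and lists were chosen with earlier results of these data known.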

Additional observations from a re-analysis of the deposited data

Results flagged for a closer look

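For 3 models the libraries had differences of opposite sign between stages, with counting intervals on either side of no difference. The difference between stages was not tested. Gm4632 was higher in cKO in post-selection cells, by 0.66 on the log2 scale, and had -0.21 in early DN cells. Gm37065 was higher in cycling Cd8-low cells, by 0.18, and had -0.26 in early DN cells. Gm40841 had 0.13 in cycling Cd8-low cells and -0.29 in DN3 cells. The post-selection value of Gm4632 was 0.27 under the stricter cell filter and lay under the 1.5-fold limit in 5 of 9 alternatives. It rests on 45 WT UMIs in 6 cells and 77 cKO UMIs in 12 cells.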

How the results depend on the processing

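No paired analysis was possible because each genotype has 1 library. The number of restricted models was 9 to 12 under the 8 alternatives run, and after thinning 7 of the 12 were still among the 9. Gm10130 stayed past 1.5-fold in mature and Foxp3-positive cells under all 9 alternatives. Differences that changed sign were Gm42047 in DN3 cells (0.12, stricter cell filter) and, after thinning to 2000 UMIs, Gm2000 in post-selection cells (-0.12) and Gm22146 in cycling Cd8-positive cells (-0.68). The cause was not tested.

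The number of called models depended on the settings. With doublets kept it was 2 in post-selection cells, and with the stricter cell filter it was 5 in early DN cells. Thinning, which leaves few UMIs per model, gave 0 in cycling Cd8-positive, 0 in mature and 0 in Foxp3-positive cells. Stricter gates gave 2 in mature and 3 in Foxp3-positive cells. Leaving mitochondrial genes and Gm10076 out of the totals gave 4 in resting DP cells. With 1 CPM added it was 7 in early DN, 7 in DN3, 5 in cycling Cd8-low, 6 in cycling Cd8-positive, 7 in resting DP and 4 in mature cells. A minimum of 20 UMIs gave 10 in post-selection, 3 in mature and 8 in Foxp3-positive cells, and no minimum gave 17, 5 and 12. Without cells holding Cd74 or H2-Aa, an alternative chosen after seeing the data, it was 2 in post-selection and 2 in mature cells. The stages with the fewest UMIs, post-selection, mature and Foxp3-positive, limit what can be counted: 14, 28 and 32 of 79 models there reached 50 UMIs.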
